A study of Sus scrofa with 2 samples.

Results

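Thrombospondins and ADAMTS proteases are secreted proteins that bind and cut the matrix around cells. Thrombospondins are large calcium-binding glycoproteins that hold cells, growth factors and proteases together, and THBS1 and THBS2 are known as inhibitors of blood vessel growth. ADAMTS proteases are zinc enzymes that carry thrombospondin type repeats, and several of them cut versican, the proteoglycan that helps to build the hyaluronan matrix around the oocyte. In the ovary ADAMTS1 is known as a progesterone receptor target of granulosa cells near ovulation, and thrombospondins are known from growing and regressing follicles.

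The 8 genes described here are THBS1, THBS2, THBS3, ADAMTS1, ADAMTS4, ADAMTS5, ADAMTS9 and ADAMTS15. They were chosen by name, each matched 1 row of the deposited gene list, and they are 8 of 22342 genes. Somatic cells of 2 healthy antral follicles over 7 mm in diameter from a single Landrace × Yorkshire pig, 210 days old and injected with pregnant mare serum gonadotropin, were profiled by 10x Genomics 3' single-cell RNA sequencing. The follicles, numbered 1 and 2 in the labels and called AF75 and AF76 by the submitters, had the same treatment and gave 1 library each, so a difference between them is a difference between 2 libraries, with no replicate follicle and no p-value. Cumulus cells had been loosened from the oocytes with hyaluronidase, and the suspension of the flushed fluid was loaded.

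Barcodes with 2000 to 5000 detected genes and under 7% of UMIs (unique molecular identifiers, 1 per captured transcript) from mitochondrial genes were taken as cells. There were 9362 in AF75 and 7843 in AF76, with 111226504 and 108920601 UMIs and a median of 11254.5 and 13902 UMIs per cell. The libraries shared 56 barcodes, 18 of them within the limits in both, and the count of members past 1.5-fold between the follicles was 2 with and without them. Granulosa markers summed to 30451 and 32034 CPM (UMIs of a gene scaled to a common library total) in AF75 and AF76, and theca or stromal markers to 2.81 and 11.13 CPM, so the labelled somatic cells were mostly of granulosa type. Of 6 graph-based clusters, AF76 cluster 2 (684 cells, led by CCL26, CCDC80 and CEMIP) stood apart, with the smooth muscle genes MYH11 and ACTA2 also among its 10 leading genes. AF75 had 0 cells in it, its median was 6435 UMIs, and its granulosa markers summed to 6433 CPM against 33747 CPM in cluster 0 of the same follicle.

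The short stretch that makes an ADAMTS protein an enzyme was read from the coding exons of the RefSeq annotation of Sscrofa11.1, the assembly the authors also used. It is shown because it is the sequence feature that the 5 ADAMTS members share and the 3 thrombospondins were not chosen for. Capitals mark codons 1, 2, 5, 8 and 11 of the zinc-binding signature, which hold the zinc ligands, the catalytic residue and 1 further residue of the signature.
ADAMTS1: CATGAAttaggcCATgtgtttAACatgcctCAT
ADAMTS4: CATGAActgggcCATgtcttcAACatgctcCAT
ADAMTS5: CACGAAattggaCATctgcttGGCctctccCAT
ADAMTS9: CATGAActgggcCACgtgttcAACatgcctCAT
ADAMTS15: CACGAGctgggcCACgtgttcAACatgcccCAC

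Each gene held the site once, and in all 5 an intron splits it. The ADAMTS1 site spans chr13:190281894-190282320 on the minus strand, and that of ADAMTS4 spans chr4:89263335-89263928 on the plus strand. The ADAMTS5 site spans chr13:190386016-190397852 and the ADAMTS9 site chr13:46164469-46170036, both on the minus strand, and the ADAMTS15 site spans chr9:57139429-57139871 on the plus strand. The exon junction falls after base 10 of the 33 bases in ADAMTS1, ADAMTS4, ADAMTS5 and ADAMTS15, and after base 17 in ADAMTS9. ADAMTS9 shared 29 bases with ADAMTS1, with ADAMTS4 and with ADAMTS15, whereas ADAMTS5 shared 19 to 21 bases with the other members.

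Promoter windows of 250 bases before the annotated start are shown for the pair of members with the most UMIs. Capitals mark the motifs searched, in either strand. In the THBS1 window (chr1:131746099-131746348, minus strand) these are 3 GC boxes (GGGCGG), 1 CCAAT box (CCAAT) and 1 TEAD core (GGAATG), which lies 63 bases before the start. In the ADAMTS1 window (chr13:190285958-190286207, minus strand) it is 1 progesterone receptor core (AGAACA), 191 bases before the start.
THBS1: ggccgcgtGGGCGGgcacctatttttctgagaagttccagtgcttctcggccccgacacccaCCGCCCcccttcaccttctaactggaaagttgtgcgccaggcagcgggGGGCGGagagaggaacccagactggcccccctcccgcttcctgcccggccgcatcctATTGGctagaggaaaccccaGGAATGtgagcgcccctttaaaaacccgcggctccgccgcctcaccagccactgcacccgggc
ADAMTS1: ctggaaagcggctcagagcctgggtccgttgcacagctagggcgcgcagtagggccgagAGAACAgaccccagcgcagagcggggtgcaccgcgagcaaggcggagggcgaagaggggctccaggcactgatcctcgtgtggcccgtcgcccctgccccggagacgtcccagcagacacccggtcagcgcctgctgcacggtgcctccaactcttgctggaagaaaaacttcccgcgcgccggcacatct

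Of 19531 promoters of the same length, 45.9% held a GC box, 31.9% a CCAAT box, 10.3% a TEAD core and 10.3% the progesterone receptor core. The TATA box TATAAA (9.76% of all promoters), the cAMP response element TGACGTCA (1.70%), the AP-1 site TGANTCA (5.25%), the RUNX core TGTGGT (14.0%) and the E-box CACGTG (6.39%) were searched too and had no match in these 2 windows. The THBS1 gene itself lies at chr1:131728781-131746098 with 22 exons. ADAMTS1, at chr13:190277175-190285957, and ADAMTS5, at chr13:190353019-190413110, lie on the same strand with an uncharacterised gene between them. ADAMTS15 lies 14449 bases from ADAMTS8. THBS3, ADAMTS1 and ADAMTS9 overlap uncharacterised genes on the opposite strand.

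The 8 genes ranged from a few UMIs per library to rank 408 of 15601 detected genes, the rank of THBS1 in AF75. In AF75 the order was THBS1, ADAMTS1, THBS3, ADAMTS4, ADAMTS9, ADAMTS5, THBS2 and ADAMTS15. In AF76 it was ADAMTS1, THBS1, THBS3, ADAMTS4, ADAMTS9, ADAMTS5, THBS2 and ADAMTS15. Neighbours in these orders had separate 95% Poisson intervals apart from THBS2 and ADAMTS15. Because a UMI counts a transcript once at its 3' end, these levels were not divided by gene length. Whether the 3' end of each gene is annotated equally well was not tested.

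**Figure D1:**
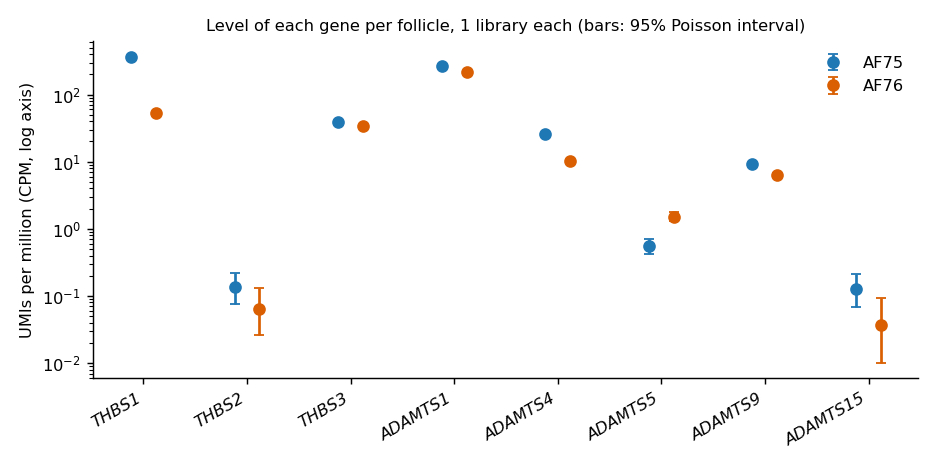
CPM of each gene in AF75 and AF76 on a log axis, with points for the library of each follicle and bars for the exact 95% Poisson interval, which covers counting error only. THBS1 separates the follicles most (363 and 53.0 CPM), ADAMTS1 is high in both (264 and 214 CPM), and THBS2 and ADAMTS15 lie at the bottom.

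THBS1, which binds cells and latent TGF-beta and restrains vessel growth, had 40338 UMIs in AF75 and 5770 in AF76. That is 363 CPM (359 to 366) and 53.0 CPM (51.6 to 54.4), a level 6.85 times higher in AF75 (6.66 to 7.04). The intervals do not overlap, and 99.6% of the 10049 genes with at least 200 UMIs in a follicle differed less than THBS1 did. The share of cells with a UMI was 41.7% in AF75 and 14.8% in AF76. With cells thinned to 5000 UMIs it was 29.0% (28.0 to 29.9) and 9.25% (8.62 to 9.92). Cells below 5000 UMIs, 19 in AF75 and 105 in AF76, were left out of all thinned values. In cluster 2 of AF76, 592 of the 684 cells stayed in.

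THBS3, a cartilage and bone thrombospondin without the vessel-inhibiting repeats, had 4320 and 3686 UMIs, or 38.8 CPM (37.69 to 40.02) and 33.8 CPM (32.76 to 34.95). Its level was 1.15 times higher in AF75 (1.10 to 1.20), and 33.3% and 33.7% of cells held a UMI. THBS2, the closest relative of THBS1, had 15 UMIs in AF75 and 7 in AF76, in 15 and 6 cells. THBS3 was thus spread over many cells at a low level, whereas THBS2 was at the edge of detection.

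ADAMTS1, the versican-cutting protease of ovulation, had 29344 and 23295 UMIs, or 264 CPM (261 to 267) and 214 CPM (211 to 217). Its ratio of AF75 to AF76 was 1.23 (1.21 to 1.26), and 56.2% and 48.9% of cells held a UMI. It was the most widely detected of the 8 genes in both follicles. ADAMTS4, an aggrecan- and versican-cutting protease, had 2883 and 1105 UMIs, or 25.9 CPM (25.0 to 26.9) and 10.1 CPM (9.56 to 10.8), a level 2.55 times higher in AF75 (2.38 to 2.74). It was found in 13.6% and 7.15% of cells.

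ADAMTS9, a large and conserved protease of the family that also cuts versican, had 1014 and 695 UMIs, or 9.12 CPM (8.56 to 9.70) and 6.38 CPM (5.92 to 6.87), and was 1.43 times higher in AF75 (1.30 to 1.58). ADAMTS5, an aggrecan- and versican-cutting relative of ADAMTS4, was the single member with a higher level in AF76, with 62 UMIs in AF75 and 165 in AF76. Its ratio of AF76 to AF75 was 2.72 (2.02 to 3.70), but it did not reach 200 UMIs in either follicle and was not counted among the genes compared. ADAMTS15, another versican-cutting protease, had 14 and 4 UMIs. All counts of ADAMTS9, ADAMTS5 and ADAMTS15 together stayed far below those of ADAMTS1.

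Of the 5 members with at least 200 UMIs in a follicle, THBS1 and ADAMTS4 passed a 1.5-fold ratio, both lower in AF76. Over all 10049 genes tested, 5.65% passed it in either direction and 3.85% were lower in AF76. The median absolute log2 ratio of all genes was 0.12, and the log2 ratio of AF76 to AF75 was -2.78 for THBS1, -1.35 for ADAMTS4, -0.51 for ADAMTS9, -0.30 for ADAMTS1 and -0.20 for THBS3. Without the cells of cluster 2, a choice made after the data were seen, THBS1 was 15.7 times higher in AF75 (15.1 to 16.4) and ADAMTS9 passed as well, at 1.55 (1.40 to 1.72), while 5.43% of all genes passed. With the mean of per-cell CPM in place of summed UMIs, the ratio of AF76 to AF75 of THBS1 was 0.217, beside 0.146 as reported, and THBS1 in AF76 was at 81.8 CPM.

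**Figure D2:**
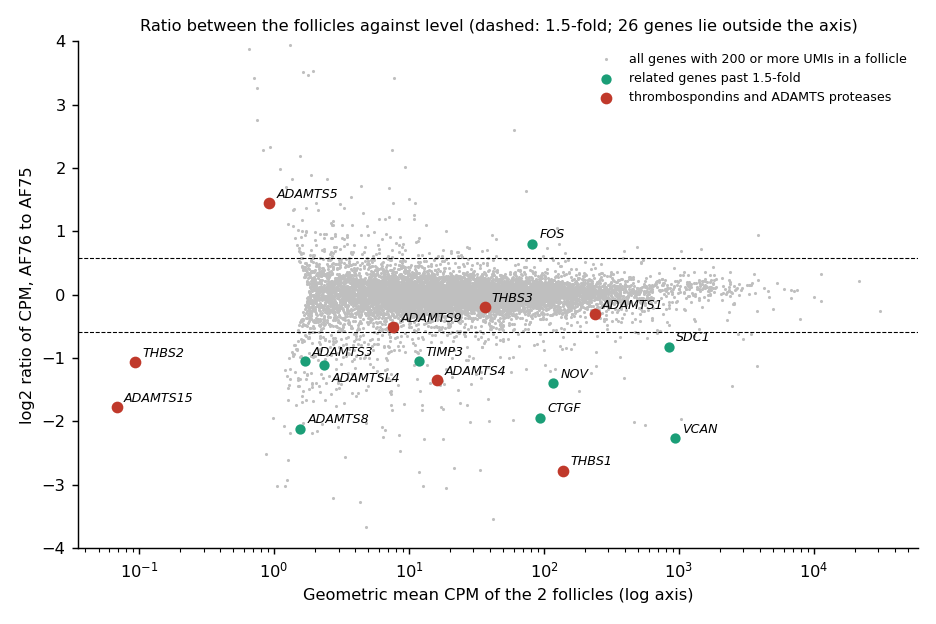
Log2 ratio of CPM of AF76 to AF75 against the geometric mean CPM (log axis) for all genes with at least 200 UMIs in a follicle (grey), the 8 members (red, labelled, also where they have fewer UMIs) and related genes past 1.5-fold (green), with dashed lines at 1.5-fold. THBS1 and VCAN lie near the lower edge at their level, and THBS3 and ADAMTS1 lie within the dashed lines.

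Expression was next followed over the clusters, which were built without the members and the related genes listed further on. Cluster 0 (6130 cells in AF75 and 5600 in AF76) was led by TGFB3, ENPP2 and IL33, and cluster 1 (2606 and 1263 cells) by ARPP21, SHAS2 and APOD. Cluster 3 (456 and 121 cells) was led by TOP2A and other genes of dividing cells, cluster 4 (169 and 167 cells) by ALDH1A2, SLC24A1 and C12orf75, and cluster 5 held 9 cells with leading genes of immune cells. Cumulus granulosa markers include VCAN, a gene also described here as a substrate. They summed to 8126 CPM in cluster 1 and 882 CPM in cluster 0 of AF75, and to 1383 and 478 CPM in AF76. The mural granulosa markers AREG and CYB5A summed to 1256 CPM in cluster 1 and 4169 CPM in cluster 0 of AF75. In AF76 they summed to 4630 and 6708 CPM, so cluster 1 of AF76 lay above cluster 0 of AF75. Whether cluster 1 holds like cells in both follicles was not tested.

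THBS1 was the member that varied most between clusters, and the cells that held it were not the same in the follicles. In AF75 it was at 48.8 CPM in cluster 0, 1098 CPM in cluster 1, 638 CPM in cluster 3 and 105 CPM in cluster 4. In AF76 it was at 14.7, 50.6, 31.4 and 84.9 CPM in the same clusters and at 697 CPM (673 to 720) in cluster 2. Cluster 1 held 79.0% of the THBS1 UMIs of AF75, while cluster 2, with 8.72% of the cells, held 58.4% of those of AF76. In cluster 2 theca or stromal markers also summed to 110 CPM, beside 6.81 CPM in cluster 0 of AF76, with 8 of 8 genes detected in both clusters. Of the 110 CPM, ACTA2 alone made up 61.2 CPM. The part of theca or stromal cells in the THBS1 level was not tested.

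Within a follicle THBS1 in cluster 1 was 22.5 times the level of cluster 0 in AF75 (21.7 to 23.3) and 3.45 times in AF76 (3.16 to 3.76). Against all other cells of the follicle it was 10.7 times as high in AF75 (10.4 to 10.9). In AF76, where the other cells include cluster 2, that ratio was 0.947 (0.882 to 1.02). Cluster 1 contributed 287 of the 363 CPM of AF75 and 8.65 of the 53.0 CPM of AF76. Between the follicles THBS1 was higher in AF75 by 3.33 times in cluster 0 (3.11 to 3.55), 21.7 times in cluster 1 (20.3 to 23.2) and 20.3 times in cluster 3 (16.1 to 26.1). In cluster 4 the levels of 105 and 84.9 CPM lay close together, with a ratio of AF76 to AF75 of 0.807 (0.661 to 0.983).

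The size of the difference in cluster 1 depended on how that cluster was drawn. With 20 components cluster 1 held 1437 cells of AF75 and 80 of AF76, with THBS1 at 1734 and 128 CPM, and without integration 2176 and 91 cells, with 1300 and 256 CPM. The ratio of AF75 to AF76 in cluster 1 was then 13.6 and 5.08. For ADAMTS4 these clusterings gave a ratio of AF76 to AF75 of 0.841 and 0.635 in cluster 1, where the integrated clusters gave 0.377 (0.333 to 0.425).

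ADAMTS4 followed cluster 1 at a lower level. It was at 16.8 CPM in cluster 0, 46.2 CPM in cluster 1, 37.1 CPM in cluster 3 and 21.96 CPM in cluster 4 of AF75. In AF76 the values were 8.81, 17.4, 12.1 and 15.3 CPM, with 1.24 CPM (6 UMIs) in cluster 2. It was the 1 member at least 2-fold higher in a cluster than in the other cells of the same follicle in both follicles, by 2.46 times in AF75 (2.29 to 2.65) and 2.01 times in AF76 (1.76 to 2.29) for cluster 1, where 0.577% of all genes passed. The ratio of AF76 lies at the threshold: with doublets removed 0 members passed, with cluster 2 left out of the other cells THBS1 passed in place of ADAMTS4, and with 20 components or without integration both did. No member passed in clusters 0, 3 or 4, where 0.498%, 3.18% and 1.14% of all genes did.

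ADAMTS1 was spread over all granulosa clusters. Its level was 248, 289, 273 and 431 CPM in clusters 0, 1, 3 and 4 of AF75 and 198, 300, 156 and 336 CPM in those of AF76. Cluster 4 was highest in both follicles, at 1.65 times the other cells in AF75 (1.54 to 1.77) and 1.59 times in AF76 (1.48 to 1.71), and 82.2% and 74.3% of its cells held a UMI. In cluster 2 it was at 109 CPM (100.2 to 119), 0.4997 times the other cells (0.458 to 0.545). No granulosa cluster lacked ADAMTS1, and the difference between the follicles was below 1.5-fold in clusters 0, 1 and 4.

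ADAMTS5 and ADAMTS9 were highest in cluster 2. ADAMTS5 was at 14.1 CPM there (10.9 to 17.8), with 68 of the 165 UMIs of AF76, and between 0.172 and 2.97 CPM in clusters 0, 1, 3 and 4 of both follicles. ADAMTS9 was at 17.4 CPM in cluster 2 (13.8 to 21.5), from 84 UMIs, and between 2.55 and 10.96 CPM elsewhere. In cluster 2, 21.7% of the 10049 genes tested were at least 2-fold higher than in the other cells of AF76. Of the members among them THBS1 and ADAMTS9 were, and THBS3, ADAMTS1 and ADAMTS4 were not. ADAMTS5, THBS2 and ADAMTS15 lie outside the genes tested. They were at least 2-fold higher as well, from 68, 2 and 1 UMIs. THBS3 lay between 28.0 and 47.4 CPM in the clusters of AF75 and between 31.9 and 35.7 CPM in those of AF76.

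**Figure D3:**
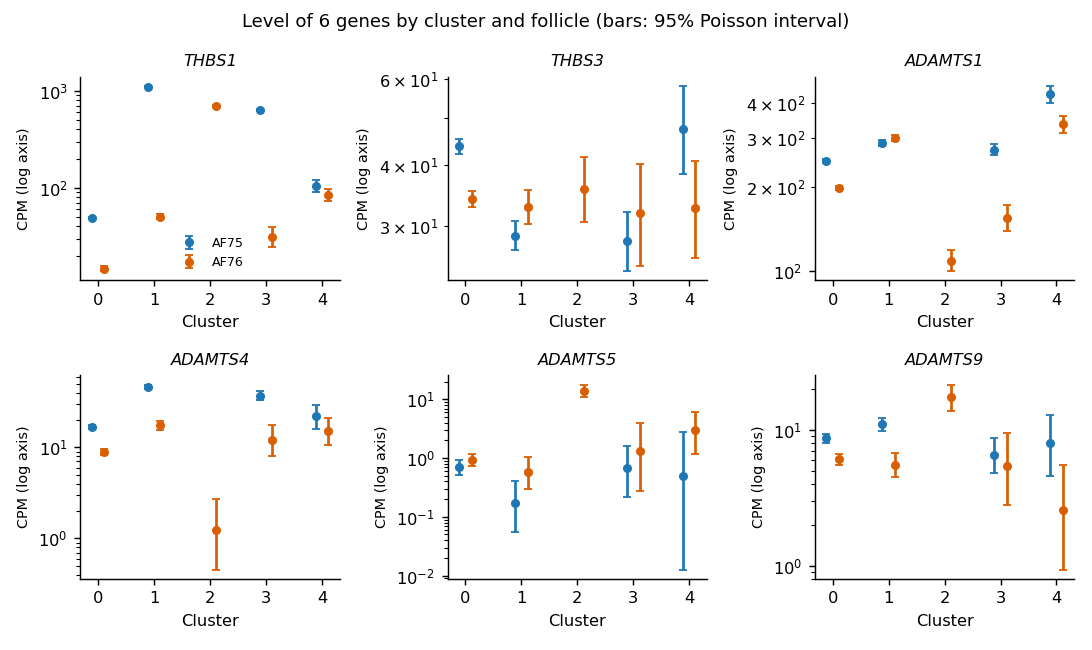
CPM of 6 genes in clusters 0 to 4 of AF75 and AF76, each panel with a log axis of its own range, points for the summed cells of a cluster and bars for the 95% Poisson interval. AF75 has no cell in cluster 2, where THBS1, ADAMTS5 and ADAMTS9 of AF76 are high and ADAMTS4 is low.

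The counts of members past 1.5-fold between the follicles were also taken within clusters. In cluster 0 they were 2 of 5 tested (THBS1 and ADAMTS4), where 1.88% of all genes passed, and in cluster 1 they were 3 of 5 (THBS1, ADAMTS4 and ADAMTS9), where 12.8% passed. In cluster 3 they were 3 of 4 (THBS1, ADAMTS1 and ADAMTS4), where 8.54% passed, and in cluster 4 they were 0 of 2, where 1.62% passed. Every member counted was lower in AF76.

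The members also differed in how unevenly single cells held them. In AF75 the 10% of cells with the most THBS1 UMIs held 81.6% of them, and in AF76 they held 93.5%, with up to 223 and 82 UMIs in a cell. For ADAMTS1 these shares were 57.1% and 65.0%, and for THBS3 49.4% and 49.6%, with at most 8 UMIs in a cell. They were 88.3% and 100% for ADAMTS4, and 100% in both follicles for ADAMTS9. The share depends on detection: it is 100% where fewer than 10% of cells hold a UMI. The top 10% of cells thus held more of the UMIs of THBS1 than of THBS3 in both follicles. In AF75, however, more cells had a THBS1 UMI (3907) than a THBS3 UMI (3121).

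At 5000 UMIs per cell the variance of THBS1 was 19.2 times its mean in AF75 and 14.1 times in AF76, and that of ADAMTS1 was 5.27 and 5.403 times. Over all genes compared the median was 1.04 and 1.05, and the 99th percentile 4.62 and 5.07. For THBS1 the value was 3.11 and 4.01 within cluster 0, and 17.4 and 4.78 within cluster 1. The spread of ADAMTS1 was as large within a cluster: in cluster 0 it was 5.85 for AF75 and 5.41 for AF76. There 62.2% and 67.8% of cells had no ADAMTS1 UMI, where a Poisson count of the same mean would leave 27.8% and 37.2%. For THBS3 the values were 1.13 and 1.10, close to those of a Poisson count, with 83.0% of cells without a UMI in AF75 beside 82.1%. For ADAMTS4 they were 2.79 and 1.85, and for ADAMTS9 1.61 and 1.57. Variance over mean can rise with the mean, and genes were not matched for level. In AF75 the mean was 1.86 UMIs for THBS1, 1.34 for ADAMTS1, 0.197 for THBS3, 0.128 for ADAMTS4 and 0.0439 for ADAMTS9.

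**Figure D4:**
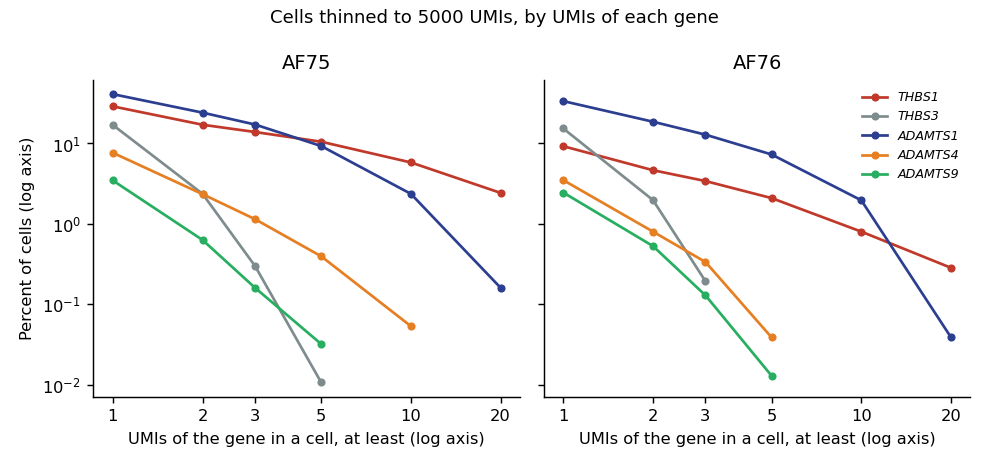
Percent of cells (log axis) with at least 1, 2, 3, 5, 10 or 20 UMIs of a gene (log axis) after thinning cells to 5000 UMIs. Cells below 5000 UMIs are left out, and so is a gene where no cell reached the number. Each gene has a line and each follicle a panel. THBS1 has the flattest line in both follicles, and at 20 UMIs it is held by 2.43% of cells in AF75 and 0.284% in AF76, beside 0.161% and 0.0388% for ADAMTS1.

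As a measure of free RNA, barcodes with at least 20% of their UMIs from HBB and HBM were taken, with the rule set once these values were known. Such red-cell barcodes numbered 12 in AF75 and 46 in AF76, with a median of 1811.5 and 3602 UMIs. THBS1, ADAMTS4 and ADAMTS9 had 0 UMIs in the 58 barcodes, which allows a share of up to 5.17% with the libraries pooled. Taken by library, the limit was 25% for the 12 barcodes of AF75 and 6.52% for the 46 of AF76. ADAMTS1 had a UMI in 3 and THBS3 in 1 of the 58 barcodes. The cells of cluster 0 were deeper, with a median of 11387 and 14237.5 UMIs, so the shares of cells with a UMI above are not on the same scale as these.

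Co-expression across cells was weak between the members themselves. Among the 10 pairs of the 5 genes with a UMI in at least 5% of the cells of both follicles, Pearson's r of log-normalized UMIs lay between -0.094 and 0.121 in AF75 (9362 cells) and between -0.034 and 0.033 in AF76 (7843 cells). Within cluster 0 the range over both follicles was -0.024 to 0.041. The highest value, of THBS1 with ADAMTS4 in AF75, was 0.114 with cells thinned to 5000 UMIs, and in AF76 the same pair was at -0.034. The cells of a follicle share a library but not a depth. UMIs per cell ran from 4148 to 32340 in AF75 and from 3487 to 32958 in AF76. Depth can add to r, and values of this size in sparse counts are given as descriptions.

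At 5000 UMIs, 41.5% of the cells of AF75 with ADAMTS4 also held THBS1, beside 27.9% of the cells without ADAMTS4, an odds ratio of 1.83 that was 1.19 within cluster 0. In AF76 the shares were 7.38% and 9.32%. For ADAMTS1, 30.5% of the cells of AF75 with it and 27.9% of those without it held THBS1, and in AF76 these were 9.18% and 9.29%. Cells with and without ADAMTS1, the most abundant protease, thus differed little in how often they held THBS1, the most abundant thrombospondin. The odds ratio was 1.14 in AF75 and 0.987 in AF76.

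The r of THBS1 with related genes and cumulus markers, some of them picked with values in view, was larger in size in AF75 for the matrix genes. With VCAN, versican itself, r was 0.594 in AF75 and 0.168 in AF76, and with SHAS2, hyaluronan synthase, 0.543 and 0.014. With TNFAIP6, which links hyaluronan chains to protein, it was 0.477 and -0.066. CTGF, a matricellular growth factor with a thrombospondin repeat, was at 0.470 and 0.348, and TIMP3, an inhibitor of ADAMTS proteases, at 0.315 and 0.267. AREG, an EGF-like ligand, had an r of -0.435 and -0.313 with THBS1, and SDC4, a cell-surface proteoglycan, one of -0.305 and -0.435.

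Within cluster 0 of AF75 the r of THBS1 was 0.139 with VCAN, 0.061 with CTGF, 0.012 with SHAS2 and -0.019 with AREG, while within cluster 1 it was 0.499, 0.302, 0.358 and -0.342. In AF76 the values within cluster 1 were 0.060, 0.160, 0.063 and -0.050. ADAMTS1 had an r of 0.124 and 0.135 with VCAN, and 0.134 and 0.117 within cluster 0. With PGR, the progesterone receptor, its r was -0.014 and 0.006.

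**Figure D5:**
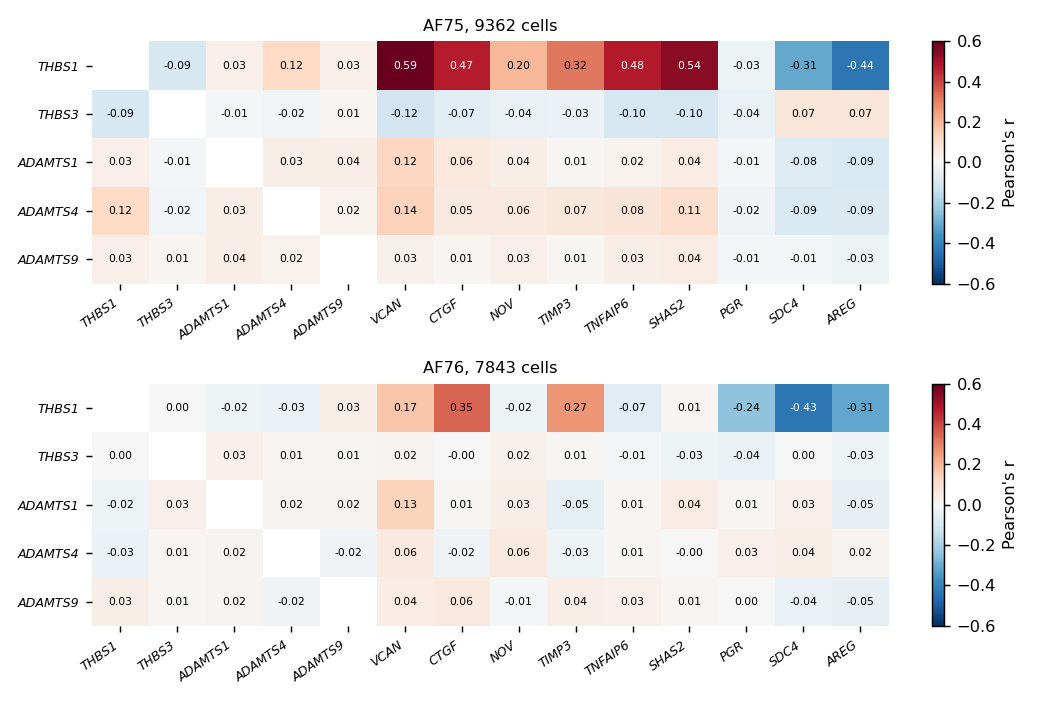
Pearson's r across the cells of AF75 (upper panel) and AF76 (lower panel) between 5 members (rows) and these members and 9 related or cumulus genes (columns), with colour from blue at -0.6 to red at 0.6. The THBS1 row of AF75 holds the strongest colours, up to 0.59 with VCAN, while the cells between members are pale in both panels.

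By the lower r of the follicles, among 8552 genes, the genes most like THBS1 were RGS4 (0.398 in AF75 and 0.382 in AF76), CTGF, S1PR1 (0.545 and 0.334), an unnamed gene with the identifier ENSSSCG00000031838 (0.324 and 0.326) and APOD (0.380 and 0.311). In a single follicle the highest r with THBS1 was with NAV2 in AF75 (0.612, and 0.200 in AF76) and with SELENOP in AF76 (0.468, and -0.109 in AF75). The genes most like ADAMTS1 were the unnamed ENSSSCG00000031023 (0.153 and 0.133), ZEB2, COMMD6, PDCD4 and VCAN. Those most like ADAMTS4 were RSPO3 (0.118 and 0.103), PRDX2, COMMD6, B4GALT3 and CALM2, and no gene reached an r of 0.1 in both follicles with THBS3 or ADAMTS9. The most like THBS3 were MT1X, GSTA4, GPC1, IGFBP2 and GUSB, and the most like ADAMTS9 were CALD1, AOX1, STAR, RPLP1 and MT1A.

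Related genes of the same pathway were listed by role, 84 of them in the gene list and 50 with at least 200 UMIs in a follicle. Of these, 8 were past 1.5-fold lower and 1 past 1.5-fold higher in AF76, beside 3.85% and 1.8% of all genes. Among other proteins with thrombospondin repeats 4 of 12 could be compared. CTGF had 182 CPM in AF75 but 47.6 CPM in AF76 (ratio of AF76 to AF75 0.261, interval 0.253 to 0.269), and NOV, of the same family, was at 189 and 71.8 CPM (0.379, 0.370 to 0.389). CYR61, the third CCN protein measured, was at 52.6 and 53.1 CPM (1.01, 0.973 to 1.05).

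The other ADAMTS proteases were scarce, and 4 of 14 reached 200 UMIs. ADAMTS8, the neighbour of ADAMTS15, was at 3.25 and 0.753 CPM (0.231, 0.180 to 0.295), and ADAMTS3, a procollagen protease, at 2.42 and 1.17 CPM (0.482, 0.387 to 0.598). ADAMTS7 was at 4.76 and 3.77 CPM (0.793) and ADAMTS6 at 3.65 and 2.45 CPM (0.672, 0.573 to 0.786), inside the 1.5-fold limit. Among the ADAMTS-like proteins, which lack the protease domain, ADAMTSL4 was at 3.46 and 1.60 CPM (0.462, 0.384 to 0.553), ADAMTSL1 at 12.2 and 14.0 CPM, and PAPLN had 174 and 180 UMIs.

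Of 9 substrates compared, VCAN alone passed. Versican had 2054 CPM in AF75 but 426 CPM in AF76, or 0.208 times as much (0.205 to 0.210), and in cluster 1 it was at 5438 and 1020 CPM. Aggrecan (ACAN), the classical substrate of ADAMTS4 and ADAMTS5, had 0 UMIs in AF75 and 3 in AF76. TFPI2, a protease inhibitor that ADAMTS1 cuts, was at 5345 and 4593 CPM (0.859), and SDC4 at 2543 and 2721 CPM (1.07).

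Of 13 thrombospondin receptors compared, SDC1 passed, at 1114 and 629 CPM (0.565, 0.560 to 0.570). ITGB1, the common integrin beta chain, was at 1644 and 2040 CPM (1.24, 1.23 to 1.25) and CALR at 1067 and 1161 CPM (1.09). The median log2 ratio of the 13 was -0.013, beside -0.0019 over all genes. Of 5 genes compared in the list of inhibitors, TIMP3 passed, at 16.9 and 8.17 CPM (0.483, 0.445 to 0.523). TIMP1 was at 10153 and 9931 CPM (0.978) and TIMP2 at 258 and 221 CPM (0.858). FBLN1, counted in this list and among the substrates though it is a cofactor of ADAMTS1, was at 37.8 and 29.5 CPM (0.781).

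None of 5 processing enzymes passed: FURIN, which activates ADAMTS proenzymes, was at 165 and 164 CPM (0.995, 0.975 to 1.02), and the glycosylation enzymes of thrombospondin repeats, POFUT2 and B3GLCT, at 178 and 165 CPM (0.928) and 87.7 and 77.04 CPM (0.879). Of 10 regulators, FOS passed with a higher level in AF76, at 61.9 and 108 CPM (1.75, 1.69 to 1.80). PGR was at 235 and 273 CPM (1.16, 1.14 to 1.18), NR5A2 at 570 and 486 CPM (0.852) and TGFB3 at 112 and 154 CPM (1.37). PGR was thus higher in AF76 and ADAMTS1 in AF75, each by less than 1.5-fold.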

How the data were processed

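The authors aligned the reads to Sscrofa11.1 and made the counts with CellRanger 6.0.2; the deposited values are whole counts of UMIs per gene and called barcode, without filter or normalization by them. The limits on cells (2000 to 5000 genes, under 7% mitochondrial UMIs) follow the study. UMIs were summed over cells and given as CPM, with Poisson (CPM), Clopper-Pearson (shares) and exact conditional (ratios) intervals at 95%, which cover counting error only. Seurat 5.3.0 in R 4.3.3 was used to integrate the follicles and to cluster on 40 components of 2000 variable genes, at the lowest resolution that gave 6 clusters, with members and related genes left out. Doublets were scored in the manner of DoubletFinder and kept in the values reported. Removing the 6.9% of cells with the highest score was an alternative, and it found 36.9% of added artificial doublets. Other steps used Python 3.11.15, numpy 2.4.6, scipy 1.17.1, pandas 2.3.3 and scikit-learn 1.9.0. Ratios were tested on simulated counts: of 9942 genes, 200 were given a log2 ratio of 2, and 100% of these were recovered. These counts held Poisson error only, and the ratio set was well past 1.5-fold. The test thus checks the computation and cannot show the spread between follicles. Genes named were the members, the 3 most abundant genes of each list of related genes with every one past 1.5-fold, and the 5 genes most like a member. ACAN, NAV2, SELENOP and the partners AREG, TNFAIP6 and SHAS2 fall outside this rule and were picked with values in view. The members, the lists and the tests were chosen with earlier results of these data known. A symbol missing from the deposited list was taken from RefSeq's table of the same assembly.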

Additional observations from a re-analysis of the deposited data

Results flagged for a closer look

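THBS1 in clusters 3 and 4 and ADAMTS5 in cluster 0 went opposite ways in the follicles when a cluster was set against the other cells of its follicle, with each interval clear of no change. The difference was not tested, since there is 1 library per follicle. For THBS1 the log2 ratio of cluster 3 was 0.90 in AF75 (0.85 to 0.94) and -0.77 in AF76 (-1.13 to -0.43), and that of cluster 4 was -1.80 in AF75 (-2.005 to -1.608) and 0.70 in AF76 (0.49 to 0.90). Against cluster 0 alone both clusters were higher in both follicles, by 13.1 and 2.14 times for cluster 3 and by 2.16 and 5.79 times for cluster 4. For ADAMTS5, from 51 and 76 UMIs, the log2 ratio of cluster 0 was 1.29 in AF75 (0.33 to 2.38) and -1.75 in AF76 (-2.21 to -1.29). With cluster 2 left out of the other cells the AF76 value was 0.0595, so the opposite direction of ADAMTS5 was not seen without cluster 2.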

How the results depend on the processing

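With 1 library per follicle no replicate could be left out, and the intervals do not hold the spread between follicles. No paired analysis was possible because each follicle gave 1 library of its own. Under the 9 alternatives that scale, filter or drop cells and keep the minimum of 200 UMIs, THBS1 and ADAMTS4 were past 1.5-fold. ADAMTS5 joined them with 500 to 6000 genes and with all deposited barcodes, and ADAMTS9 without cluster 2, where the ratio of AF76 to AF75 of THBS1 was 0.0636, the lowest over these alternatives, the highest being 0.217 with the mean of per-cell CPM. With no minimum of UMIs, 5 members and 23 related genes passed, since genes with few UMIs then count. The number of members at least 2-fold higher in a cluster in both follicles was 2 with 20 components and 2 without integration (THBS1 joined ADAMTS4), and 0 with doublets removed, where the log2 ratio of ADAMTS4 in cluster 1 of AF76 was 0.94. With cluster 2 left out of the other cells, added after the data were seen, the 1 member was THBS1. The log2 ratio of ADAMTS5 in cluster 1 of AF76 turned from -1.53 to 0.87 with 20 components and to 2.21 without integration, from few UMIs, and that of cluster 0 of AF76 turned to 0.0595 with cluster 2 left out. The causes were not tested. Of 624 values of single genes or pairs under an alternative, 493 stayed within the interval set for the value reported, 128 left it and 3 turned. That interval covered counting error for CPM, shares and ratios of CPM. For correlations and odds ratios it was a margin that takes cells as independent. Among the 128 were 15 shares of cells with a UMI, which thinning lowers by removing UMIs.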
